A study of Mus musculus with 53 samples.

Results

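Claudins are membrane-spanning proteins that form the strands of the tight junction, the seal that closes the gap between neighbouring epithelial or endothelial cells. Each cell type makes its own mixture of claudins, and the mixture sets which ions and molecules pass between the cells. Some members mainly tighten the seal (Cldn1, Cldn3, Cldn4, Cldn5), whereas forms of Cldn10, like Cldn2 and Cldn15, make channels that let ions through. In stratified barriers such as the epidermis and the cornea, tight junctions lie in the upper living layers, and mice without Cldn1 lose water through the skin.

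The 10 claudins described here, Cldn1, Cldn3, Cldn4, Cldn5, Cldn6, Cldn7, Cldn8, Cldn10, Cldn18 and Cldn23, were taken by their symbol in the annotation of both array platforms of a survey of mouse tissues that face the outside or a lumen. They were 10 of 19938 named genes in the table from whole-transcript arrays (Gene ST arrays) and 10 of 18194 named genes in the table from arrays that read the 3' end of the transcript (3' arrays). The brightest probe set of a gene stood for it. The series holds 53 arrays of total RNA in 18 groups, with 3 arrays a group except for 2 of the bladder at embryonic day 14.5.

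The Gene ST arrays hold whole cornea from 3 embryonic ages (E14.5, E15.5, E17.5) and from mice 3, 7, 14 and 28 days old (P3, P7, P14, P28), together with E18.5 samples labelled trachea and lung. The 3' arrays hold 3 organs of the gut at E18.5 (proximal small intestine, stomach, esophagus), the skin of the back at 3 ages (E14.5, then E16.5, then E18.5) and the bladder, wild-type at E14.5 and E16.5 and from embryos heterozygous for Get1 (Get1 +/-) at E18.5. All other groups are wild-type mice of the CB6 strain. Get1, the gene now called Grhl3, encodes a grainyhead-like transcription factor of epithelia. With no wild-type bladder at E18.5 among the groups, age and genotype cannot be told apart in the step from E16.5 to the Get1 +/- bladder. Whether the replicates of a group are separate animals is not in the labels, so the p-values speak to the spread from array to array, which may be partly technical.

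The promoters of Cldn18, Cldn7, Cldn4 and Cldn3 are shown first, the 4 members with the widest span between their highest and lowest group means on the 3' arrays (9.63, 6.49, 5.44 and 4.00 log2 units), as 250 bases before a transcription start from RefSeq (GRCm38.p6), 5′ to 3′ on the gene's strand. Cldn3 and Cldn4, both on chromosome 5 with starts on opposite strands, have 1 start each in the table, whereas Cldn7 and Cldn18 have 2. Capitals mark matches, on either strand, to 3 motifs: AACNNGTT, the core that grainyhead-like factors bind, CCCACCC, a box bound by Klf factors, and AGGAAG, a box of Ets factors. Matches may overlap one another.
Cldn3 at chr5:134985964-134986213, plus strand: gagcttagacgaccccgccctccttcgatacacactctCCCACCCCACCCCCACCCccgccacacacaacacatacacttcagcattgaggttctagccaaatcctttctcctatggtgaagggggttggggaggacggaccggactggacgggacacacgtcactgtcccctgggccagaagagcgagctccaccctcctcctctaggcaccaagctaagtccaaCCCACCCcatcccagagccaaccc
Cldn4 at chr5:134946935-134947184, minus strand: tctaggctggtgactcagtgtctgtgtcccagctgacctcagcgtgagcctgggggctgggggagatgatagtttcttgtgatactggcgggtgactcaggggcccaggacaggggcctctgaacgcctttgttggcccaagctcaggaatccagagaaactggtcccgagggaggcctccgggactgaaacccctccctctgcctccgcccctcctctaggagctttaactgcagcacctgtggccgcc
Cldn7, start 1, at chr11:69964529-69964778, plus strand: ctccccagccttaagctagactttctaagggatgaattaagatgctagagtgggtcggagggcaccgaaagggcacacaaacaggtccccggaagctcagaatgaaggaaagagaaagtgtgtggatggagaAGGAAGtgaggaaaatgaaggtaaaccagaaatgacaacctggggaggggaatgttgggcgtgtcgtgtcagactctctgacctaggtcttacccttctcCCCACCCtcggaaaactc
Cldn7, start 2, at chr11:69965171-69965420, plus strand: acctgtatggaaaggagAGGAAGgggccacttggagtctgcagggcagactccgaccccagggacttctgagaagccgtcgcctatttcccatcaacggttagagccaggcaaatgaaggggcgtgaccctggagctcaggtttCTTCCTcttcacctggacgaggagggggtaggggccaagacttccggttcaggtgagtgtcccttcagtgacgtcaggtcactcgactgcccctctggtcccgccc
Cldn18, start 1, at chr9:99717268-99717517, minus strand: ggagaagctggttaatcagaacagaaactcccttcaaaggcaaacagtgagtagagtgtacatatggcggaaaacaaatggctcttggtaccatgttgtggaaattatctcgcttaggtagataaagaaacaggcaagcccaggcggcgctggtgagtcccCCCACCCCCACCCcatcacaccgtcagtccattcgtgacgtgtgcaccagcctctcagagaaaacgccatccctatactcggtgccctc
Cldn18, start 2, at chr9:99710064-99710313, minus strand: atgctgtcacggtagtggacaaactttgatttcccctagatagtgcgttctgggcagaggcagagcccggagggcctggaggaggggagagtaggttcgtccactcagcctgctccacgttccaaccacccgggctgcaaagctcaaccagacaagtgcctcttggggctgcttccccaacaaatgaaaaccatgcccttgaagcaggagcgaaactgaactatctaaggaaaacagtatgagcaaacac

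The Cldn3 window held 4 matches to CCCACCC, and the Cldn4 window held no match to any of the 3 motifs. At Cldn7, the window of start 1 held 1 CCCACCC and 1 AGGAAG, and that of start 2 held 2 AGGAAG. At Cldn18, the window of start 1 held 2 CCCACCC, and that of start 2 held none of the motifs. Among all 32851 mouse promoter windows of this length, 15.8% held CCCACCC, 29.5% held AGGAAG and 3.6% held AACNNGTT. At least 2 matches to CCCACCC occurred in 3.22% of windows and at least 4 in 0.201%. Promoters were matched for 8 of the 10 members, and Cldn5 was the one among the 8 with a match to AACNNGTT. A match describes letters in the window and is not a binding site.

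Several arrays departed from their labels or from one another, and the values below are given with these departures beside them. On the 3 arrays labelled lung, the summed deposited intensity of 15 thymocyte genes was 140200 to 149500, against 1426 to 1606 on the trachea arrays. Rag1, which recombines antigen receptor genes, had a log2 level of 14.2 there, while the lung surfactant genes Sftpc and Sftpb were at 6.83 and 7.60, and 8 of 12 lung epithelial genes were below the median level of the table. These arrays are therefore called "arrays labelled lung" throughout. On the E14.5 cornea arrays, summed lens genes reached 5489, 69300 and 64990, against 1586 to 1789 at E15.5. In the 3' table the first principal component held 56.9% of the variance and split the groups into a set of 17 arrays (bladder, esophagus, stomach and E14.5 skin) and a set of 9 (small intestine, E16.5 skin and E18.5 skin). Any pair of groups across the sets differed in 42.7% to 49.4% of all genes. Pairs within the 17 differed in 0.341% to 14.2%, and pairs within the 9 in 4.44% to 19.2%. A tissue or age difference that crosses the sets cannot be told apart from the split. In the Gene ST table the first component held 42.1% of the variance. It set the cornea arrays apart from the trachea arrays and the arrays labelled lung. A difference between cornea and those groups cannot be told apart from that split. Small intestine replicate 3 had summed intestinal genes of 11270 against 107000 and 107400 on the other arrays of that group, and carried stomach and epidermal genes. E14.5 skin replicates 1 and 2, whose titles share an identifier, carried liver, gut and yolk sac genes (a list chosen after values were seen) at a sum of 34980 and 34600, against 161.3 on replicate 3. The title of replicate 2 ends in the suffix re, which is not explained. The labels do not say outright whether these replicates are 1 sample run again, and n = 3 for E14.5 skin counts both.

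Levels are given as log2 of the deposited intensity plus 16 after quantile normalization within a table, so an intensity of 0 lies at a level of 4. Levels of different genes, and of the same gene in the 2 tables, come from different probes and are not compared. A gene is called changed at an adjusted p under 0.05 (limma with Benjamini-Hochberg adjustment over all named genes of the table) and at least a 2-fold difference. In whole tissue, fewer cells of a type and less RNA per cell cannot be told apart.

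In the cornea, 5 of the 10 claudins changed with age: Cldn1, Cldn4, Cldn7, Cldn10 and Cldn23. Over all genes, 21.7% changed across the 7 ages. The range between the highest and lowest age had a median of 1.36 log2 units over the 10 members and 0.55 over all genes. Each of the 5 had its lowest mean at E14.5, but they peaked at different ages, Cldn1 at E15.5, Cldn10 at P7, and Cldn4, Cldn7 and Cldn23 at P28. Cldn3, Cldn5, Cldn6, Cldn8 and Cldn18 stayed within a range of 0.33 to 0.86 log2 units, under the 2-fold limit.

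**Figure D1:**
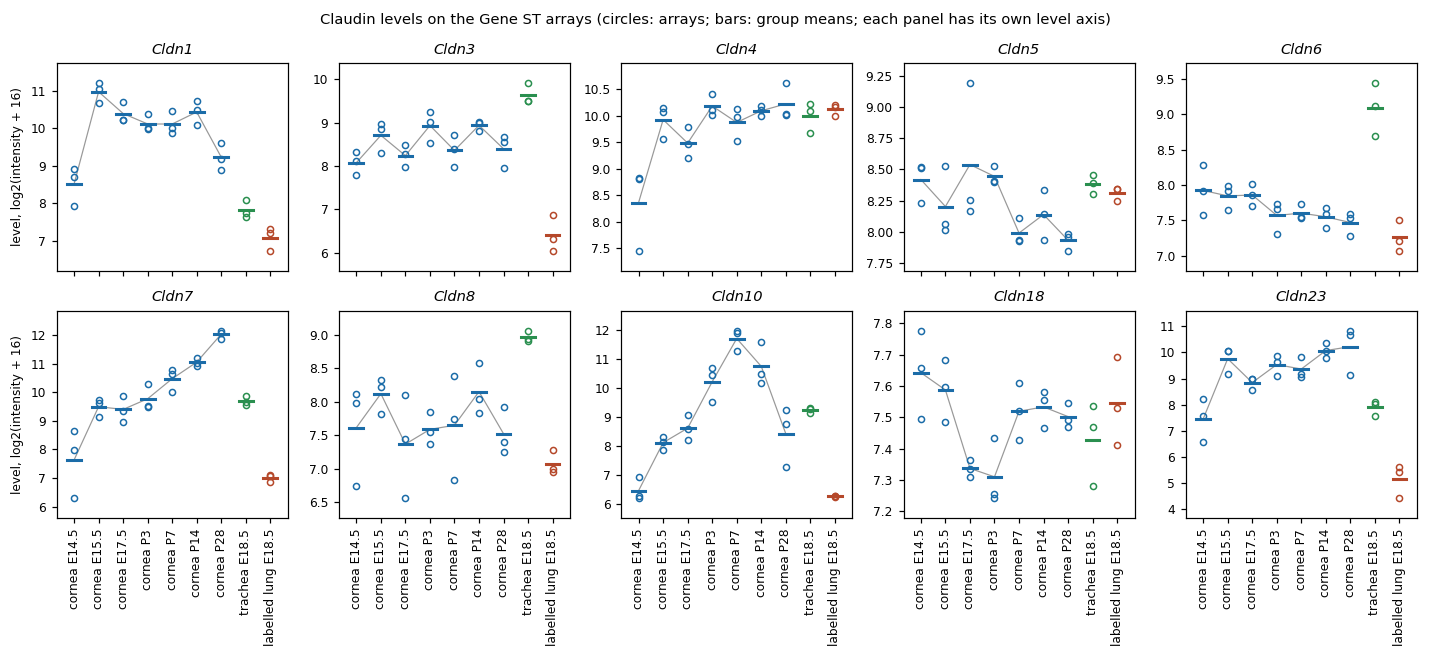
Log2 level of each claudin (vertical axis) on every array of the 9 groups of the Gene ST table (horizontal axis), with points for arrays and bars for group means. Cldn7 climbed from a mean of 7.63 at E14.5 to 12.03 at P28 in the cornea, Cldn10 was highest at P7, and Cldn18 stayed between 7.31 and 7.64 in every group.

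Cldn7, a claudin found along the lateral membrane as well as in the tight junction of many epithelia, was highest at the oldest age. Its levels on the 3 arrays were 7.96, 8.62 and 6.29 at E14.5, 9.14, 9.72 and 9.61 at E15.5 and 12.07, 12.15 and 11.87 at P28. All P28 arrays lay above all E15.5 arrays, which in turn lay above all E14.5 arrays. The means between were 9.40 ± 0.46 at E17.5, 9.77 ± 0.45 at P3, 10.47 ± 0.40 at P7 and 11.05 ± 0.16 at P14 (SD, n = 3). Cldn7 rose by 1.86 log2 units (SE 0.37, adjusted p = 0.000602) from E14.5 to E15.5, and by 1.20 without E14.5 replicate 3, its lowest array. From E14.5 to P28 Cldn7 rose by 4.40 log2 units (SE 0.37, 21.2-fold, adjusted p = 1.98e-09). No single step after E15.5 was called for Cldn7, although P28 exceeded E15.5 by 2.54 log2 units (SE 0.37, adjusted p = 1.24e-05).

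Cldn10, whose isoforms make channels for cations or anions, followed a different course, with a rise to P7 and a fall from P14 to P28. Its levels were 6.19, 6.91 and 6.25 at E14.5, 11.96, 11.87 and 11.25 at P7 and 8.74, 7.25 and 9.23 at P28. The P7 arrays lay above all arrays of both other ages, and the P28 arrays were spread more widely than those of either. The intermediate means were 8.10 ± 0.23 at E15.5, 8.60 ± 0.43 at E17.5, 10.20 ± 0.61 at P3 and 10.73 ± 0.74 at P14 (SD, n = 3). The steps called for Cldn10 were E14.5 to E15.5 (1.65 log2 units, SE 0.40, adjusted p = 0.00329), E17.5 to P3 (1.60 log2 units, SE 0.40, adjusted p = 0.014) and P3 to P7 (1.49 log2 units, SE 0.40, adjusted p = 0.0238), each upward. From P14 to P28 it fell by 2.32 log2 units (SE 0.40, adjusted p = 0.000283), and P28 stayed above E14.5 by 1.96 log2 units (SE 0.40, adjusted p = 0.000373). The P7 mean exceeded the E14.5 mean by 5.24 log2 units, or 37.9-fold, the widest range among the members in the cornea.

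Cldn1, the claudin without which the epidermis leaks, was highest just after its lowest point. Its levels were 8.90, 8.70 and 7.91 at E14.5, 10.68, 11.04 and 11.20 at E15.5 and 9.17, 9.61 and 8.88 at P28. The E15.5 arrays lay above every array of the other 2 ages, while the E14.5 and P28 arrays overlapped, at 8.90 and 8.88. Cldn1 rose by 2.46 log2 units from E14.5 to E15.5 (SE 0.25, adjusted p = 1.58e-07), held means of 10.11 to 10.43 from E17.5 to P14, and fell by 1.20 from P14 to P28 (SE 0.25, adjusted p = 0.00176). Between E14.5 and P28 its difference of 0.72 log2 units (adjusted p = 0.0234) was under 2-fold.

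Cldn4, a sealing claudin of many tight epithelia, and Cldn23, an epithelial member of which less is known, rose from E14.5 to E15.5 and were called in no later step between neighbouring ages. Cldn4 levels were 8.80, 8.83 and 7.46 at E14.5, 9.55, 10.15 and 10.07 at E15.5 and 10.61, 10.03 and 10.02 at P28. All E14.5 arrays were below all arrays of the other 2 ages. Cldn4 rose by 1.56 log2 units (SE 0.27, adjusted p = 0.000154) from E14.5 to E15.5 and by 1.86 log2 units (SE 0.27, adjusted p = 7.72e-06) from E14.5 to P28. Cldn23 levels were 7.57, 8.20 and 6.59 at E14.5, 9.17, 10.07 and 10.04 at E15.5 and 10.83, 10.68 and 9.15 at P28. The E14.5 arrays again lay below both later ages, and 1 P28 array lay well below the others of its group. Cldn23 rose by 2.30 log2 units (SE 0.41, adjusted p = 0.000201) from E14.5 to E15.5 and by 2.76 log2 units (SE 0.41, adjusted p = 9.71e-06) from E14.5 to P28.

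The step from E14.5 to E15.5 held the rise of all 5 of these claudins, against 7.56% of all genes called in either direction. The median change was 1.10 over the 10 members and -0.02 over all genes. From E14.5 to P28, 4 of the 10 rose (Cldn4, Cldn7, Cldn10, Cldn23) and none fell, against 13.9% of all genes. Other epithelial genes moved in the same step. Of 19 reference genes of epithelia, 16 rose from E14.5 to E15.5, and their summed intensity was 5158 to 15180 at E14.5 and 32110 to 44140 at E15.5. Cdh1, the epithelial cadherin, had a mean of 9.40 ± 1.39 (SD, n = 3) at E14.5. Epcam, an epithelial adhesion protein, was at 10.75, 10.88 and 9.27 at E14.5 and at 10.63 ± 0.13 at E15.5. E14.5 replicate 3, the array with the lowest epithelial sum, also had the lowest Cldn1, Cldn4, Cldn7 and Cldn23. Summed lens genes were high on E14.5 replicates 2 and 3 and lower on replicate 1, and 6 of 8 lens genes fell to E15.5. The part of lens and epithelial content in the claudin changes was not tested. With E14.5 left aside, P28 against E15.5 still held a rise of Cldn7 and a fall of Cldn1 by 1.75 log2 units (SE 0.25, adjusted p = 9.26e-06), against 10.3% of all genes. Other cell markers moved in the same comparison: summed corneal epithelial genes were 26210 to 38730 at E15.5 and 92020 to 97870 at P28, mesenchyme and stroma genes 49650 to 56850 and 16200 to 19470, and lens genes 1586 to 1789 and 3657 to 18730. Their part in the Cldn1 and Cldn7 changes was not tested.

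Called members were few in the other steps. None of the 10 was called from E15.5 to E17.5, where 0.306% of all genes were called, or from P7 to P14, where 0.0150% were. Cldn10 was the one member called from E17.5 to P3 (1.43% of all genes) and from P3 to P7 (1.42%). From P14 to P28 Cldn1 and Cldn10 were called lower and no member was called higher, against 4.47% of all genes. Cldn7 was higher at P28 by 0.99 log2 units (adjusted p = 0.0829), and with values as deposited it was called (1.26, adjusted p = 0.0103). In the fitted steps with 0 members called, 3 and 2 members respectively had an unadjusted p under 0.05.

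**Figure D2:**
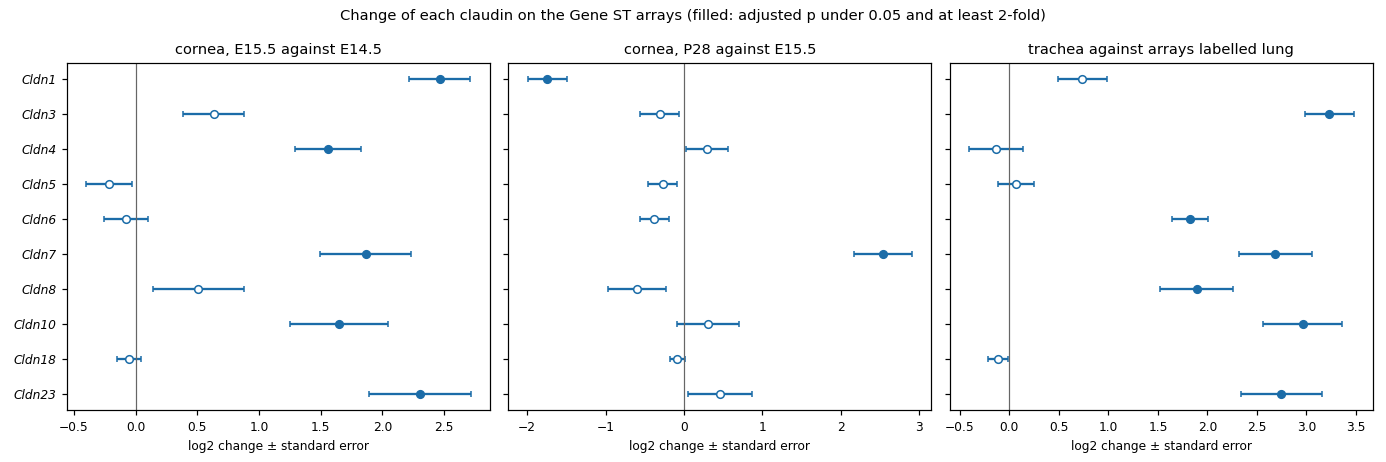
Log2 change (horizontal axis, with bars for the standard error) of each claudin (vertical axis) for E15.5 against E14.5 cornea, P28 against E15.5 cornea and trachea against the arrays labelled lung, with filled points for called changes. All 5 called changes from E14.5 to E15.5 were upward, Cldn1 was lower and Cldn7 higher at P28 than at E15.5, and 6 claudins were higher in trachea.

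Trachea, an airway lined by a pseudostratified epithelium and held by cartilage, exceeded the arrays labelled lung in 6 of the 10 claudins: Cldn3, Cldn6, Cldn7, Cldn8, Cldn10 and Cldn23. Over all genes 16.1% were called in this comparison. The median difference was 1.86 log2 units over the 10 members and -0.06 over all genes, and no member was called lower. Since the arrays labelled lung carry thymocyte genes and few lung epithelial genes, the comparison is one of these arrays and not of 2 airway tissues.

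Cldn3, a sealing claudin of simple epithelia, showed the widest difference. Its levels were 9.91, 9.50 and 9.51 in trachea and 6.32, 6.87 and 6.05 on the arrays labelled lung, so the groups did not overlap. The difference was 3.23 log2 units (SE 0.25, adjusted p = 2.33e-10), or 9.39-fold. Cldn10 was at 9.11, 9.25 and 9.30 in trachea and at 6.28, 6.25 and 6.26 on the arrays labelled lung, a difference of 2.96 log2 units (SE 0.40, adjusted p = 1.87e-06). Its replicates were close together in both groups.

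Cldn7 was at 9.88, 9.64 and 9.54 in trachea against 7.05, 6.86 and 7.09, a difference of 2.69 log2 units (SE 0.37, adjusted p = 2.77e-06). Cldn23 was at 8.02, 8.10 and 7.58 against 4.43, 5.43 and 5.61, a difference of 2.75 log2 units (SE 0.41, adjusted p = 8.46e-06). Both sets of trachea arrays lay wholly above those labelled lung. On the arrays labelled lung, Cldn23 had deposited intensities of 5.37, 20.09 and 24.02, near the level of 4 that stands for an intensity of 0. The size of its difference therefore depends on the 16 added to each intensity. Cldn6, a claudin of embryonic epithelia, was at 9.44, 9.11 and 8.70 against 7.07, 7.21 and 7.50, a difference of 1.82 log2 units (SE 0.18, adjusted p = 2.08e-08). Cldn8, which works with Cldn4 in tight epithelia of the kidney, was at 9.06, 8.93 and 8.91 against 7.28, 6.99 and 6.95, a difference of 1.89 log2 units (SE 0.37, adjusted p = 0.000218). In neither case did the groups overlap. In all 7 cornea groups the means of Cldn6 (7.47 to 7.92) and Cldn8 (7.37 to 8.15) were below the trachea mean. This comparison crosses the split of the Gene ST table.

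Cldn4 had nearly the same mean in both groups, 9.99 ± 0.28 in trachea and 10.12 ± 0.10 on the arrays labelled lung, with a difference of -0.13 (SE 0.27, adjusted p = 0.726). Cldn1 differed by 0.74 log2 units (adjusted p = 0.0195), under the 2-fold limit. Cldn5, the claudin of blood vessels, and Cldn18 were not called either. Summed epithelial reference genes were 28700 to 38080 in trachea and 28010 to 28860 on the arrays labelled lung, and Cdh1 was 10.54 ± 0.22 against 9.29 ± 0.16 (SD, n = 3). Summed airway genes were 59800 to 77730 against 9557 to 14890, and skeletal muscle genes, which the trachea arrays also carried, 95080 to 129400 against 1881 to 2500. The part of these cell types in the differences was not tested.

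In the 3' table, 0 of the 10 claudins were called in bladder from E14.5 to E16.5, against 0.341% of all genes. No member had an unadjusted p under 0.05 in that step. From E16.5 to the Get1 +/- bladder at E18.5, Cldn6, Cldn10 and Cldn23 rose, against 6.14% of all genes. The estimate was positive for all 10 members, with a median of 0.99 log2 units against 0.05 over all genes. Cldn7 was at 8.16, 8.03 and 8.49 at E16.5 and at 9.32, 9.65 and 9.78 in the Get1 +/- group. Its rise of 1.36 log2 units was not called (SE 0.60, adjusted p = 0.139). It was called when only the groups compared entered the fit (adjusted p = 0.00663).

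Cldn10 levels in bladder were 5.15 and 5.00 at E14.5, 5.10, 5.73 and 5.86 at E16.5 and 7.25, 7.43 and 6.67 in the Get1 +/- group. The Get1 +/- arrays lay above all wild-type bladder arrays, and the rise from E16.5 was 1.55 log2 units (SE 0.27, adjusted p = 0.000455). Cldn23 was at 6.72, 6.43 and 6.72 at E16.5 and at 7.86, 7.68 and 7.77 in the Get1 +/- group, a rise of 1.14 log2 units (SE 0.28, adjusted p = 0.00815) with no overlap. Cldn6 was at 7.85 and 6.85 at E14.5, 6.33, 6.75 and 6.83 at E16.5 and 8.04, 8.40 and 8.15 in the Get1 +/- group, a rise of 1.56 log2 units (SE 0.50, adjusted p = 0.0413). The call of Cldn6 was lost when any 1 of the 6 arrays compared was left out (adjusted p = 0.0627 to 0.135). Grhl3 itself was at 6.85, 6.85 and 7.39 at E16.5 and at 7.43, 7.33 and 7.70 in the Get1 +/- group. Summed urothelial genes were 3073 to 3466 and 6082 to 7540, and summed skeletal muscle genes 1170 to 1996 and 5288 to 6648. Their part in the claudin changes was not tested.

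Among bladder (Get1 +/-), esophagus and stomach at E18.5, which lie in the same set of arrays, 7 of the 10 claudins differed, against 17.3% of all genes. The exceptions were Cldn3 (adjusted p = 0.0876), Cldn4 (0.191) and Cldn7 (0.629). Cldn3 was called when only these groups entered the fit (range 1.99 log2 units, adjusted p = 0.00503). The widest range among the members was that of Cldn18, and most of the other called members were highest in the esophagus or the bladder.

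**Figure D3:**
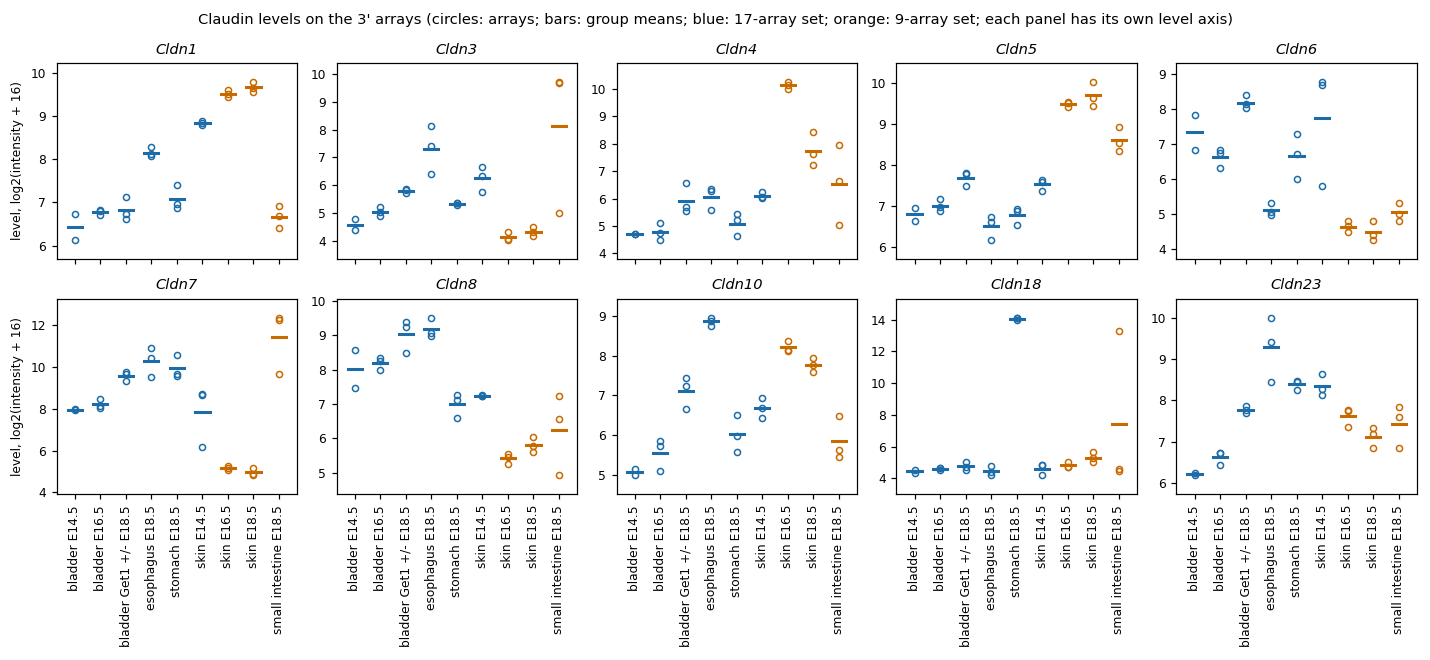
Log2 level of each claudin (vertical axis) on every array of the 9 groups of the 3' table (horizontal axis), with points for arrays and bars for group means. Cldn18 stood at 13.96 to 14.13 in stomach and at 13.27 on 1 small intestine array, and between group means of 4.44 and 5.31 in the other groups.

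Cldn18, which has a stomach form that helps to keep acid out of the gastric wall, was at 14.13, 14.13 and 13.96 in stomach. In esophagus its levels were 4.42, 4.25 and 4.76, and stomach exceeded esophagus by 9.60 log2 units (SE 1.30, adjusted p = 2.25e-05), or 776-fold. The 2 groups were far apart on every array, and the standard error comes from the fit over all groups, in which small intestine replicate 3 widens the spread of Cldn18. The Get1 +/- bladder arrays were at 4.72, 4.56 and 5.04. With the mean of both Cldn18 probe sets the difference was 5.63 log2 units. The second probe set did not share this course: its highest mean, 6.47, was in the small intestine, and its correlation with the one used was 0.755 over the 9 group means. Genes of the gastric list summed to 7323 to 16860 on the stomach arrays, which also carried epidermal genes at 12440 to 20790.

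Esophagus, lined by a stratified squamous epithelium, held more Cldn1, Cldn8 and Cldn10 than stomach. In total 5 members were called between stomach and esophagus, 2 higher in stomach (Cldn6, Cldn18) and 3 lower, against 7.05% of all genes. Cldn10 was at 8.74, 8.95 and 8.88 in esophagus and 6.52, 5.98 and 5.59 in stomach, and fell by 2.83 log2 units (SE 0.27, adjusted p = 2.1e-07) from esophagus to stomach. Cldn8 was at 8.98, 9.08 and 9.52 in esophagus and 7.26, 6.58 and 7.12 in stomach, a difference of -2.21 log2 units (SE 0.39, adjusted p = 0.000507). Cldn1 was at 8.28, 8.11 and 8.06 and 6.86, 7.39 and 6.97, a difference of -1.07 log2 units (SE 0.17, adjusted p = 0.000145). None of these 3 claudins overlapped between the groups, and neither did Cldn3 and Cldn4, which were not called. The share of all genes without overlap was not computed.

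Cldn6 was higher in stomach, at 7.31, 6.72 and 6.02 against 5.32, 5.08 and 4.97 in esophagus (1.56 log2 units, SE 0.50, adjusted p = 0.0425). The call of Cldn6 was lost without any of 5 of the 6 arrays compared (adjusted p = 0.0724 to 0.18) and with values as deposited (adjusted p = 0.104). Without stomach replicate 1, Cldn8, Cldn10 and Cldn18 were left, since Cldn1 fell just short of the 2-fold limit at -0.97 (adjusted p = 0.00168). Cldn3 was at 6.40, 8.14 and 7.42 in esophagus and 5.28, 5.34 and 5.37 in stomach. Its difference of -1.99 did not pass the test in the fit over all groups (adjusted p = 0.083). With only esophagus and stomach in the fit, Cldn3 was called (adjusted p = 0.0244). Cldn23 was at 8.43, 9.41 and 10.00 in esophagus and had a mean of 8.38 ± 0.11 in stomach, a difference of -0.89 (adjusted p = 0.036) under the 2-fold limit. Genes of the esophageal list summed to 17110 to 29310 in esophagus and to 12900 to 15430 in stomach.

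The Get1 +/- bladder differed from esophagus in 5 of the 10 claudins, against 11.2% of all genes. It was higher in Cldn6 by 3.07 log2 units (adjusted p = 0.000132) and in Cldn5 by 1.18 (adjusted p = 7.53e-05). It differed by -1.74 in Cldn10 (adjusted p = 5.83e-05), by -1.51 in Cldn23 (adjusted p = 0.00043) and by -1.33 in Cldn1 (adjusted p = 8.5e-06), each lower in bladder. From stomach it differed in 4 of the 10, against 9.82% of all genes. The difference was -9.30 in Cldn18 (adjusted p = 2.43e-05), lower in bladder, and 2.06 in Cldn8 (adjusted p = 0.000672), 1.51 in Cldn6 (adjusted p = 0.0342) and 1.08 in Cldn10 (adjusted p = 0.00507), higher in bladder. The mean of Cldn6 was high in the Get1 +/- bladder, at 8.20 ± 0.19, and low in esophagus, at 5.13 ± 0.18 (SD, n = 3). Genotype and organ cannot be told apart in these pairs.

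Small intestine and E18.5 skin lie in the other set of arrays. Small intestine exceeded skin in Cldn3 and Cldn7 and was lower in Cldn1, Cldn4, Cldn5 and Cldn10, with 19.2% of all genes called. Cldn7 was at 12.38, 12.27 and 9.66 in small intestine and 4.88, 4.81 and 5.17 in skin, a difference of 6.49 log2 units (SE 0.60, adjusted p = 3.01e-08), or 89.6-fold. Cldn3 was at 9.72, 9.68 and 4.99 in small intestine and 4.17, 4.48 and 4.31 in skin, a difference of 3.81 log2 units (SE 0.75, adjusted p = 0.000368). The third small intestine array was the lowest of its group for both claudins and still lay above every skin array. For Cldn3 that array, at 4.99, and the skin arrays lay near the level of 4 that stands for an intensity of 0. The Cldn3 call was lost when only small intestine and E18.5 skin entered the fit (adjusted p = 0.0993).

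Cldn1 was at 6.68, 6.41 and 6.91 in small intestine and 9.56, 9.64 and 9.78 in E18.5 skin, a difference of -2.99 log2 units (SE 0.17, adjusted p = 1.61e-11). Cldn10 differed by -1.91 log2 units (SE 0.27, adjusted p = 7.77e-06) and Cldn5 by -1.10 log2 units (SE 0.18, adjusted p = 7.03e-05), both lower in small intestine. Cldn4 was at 5.02, 6.65 and 7.94 in small intestine and 7.22, 7.61 and 8.43 in skin, and the groups overlapped. Its difference of -1.22 (adjusted p = 0.0484) was lost when any of 4 of the 6 arrays was left out (adjusted p = 0.0765 to 0.419). It was -0.46 without small intestine replicate 1 and -1.92 without small intestine replicate 3 (adjusted p = 0.000538).

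Cldn18 and Cldn8 took other values without small intestine replicate 3. Cldn18 was at 4.58, 4.48 and 13.27 on the 3 arrays, so its mean of 7.44 rested on replicate 3. Without that array the mean was 4.53 ± 0.07 (SD, n = 2), and the difference from skin turned from positive to -0.78 (adjusted p = 0.00493). Cldn8 was at 7.24, 6.57 and 4.92, and without replicate 3 it exceeded skin by 1.10 (adjusted p = 0.00522). Cldn3 and Cldn7 had means of 9.70 ± 0.03 and 12.32 ± 0.08 without it. On replicate 3, Atp4b, a subunit of the gastric proton pump, was at 12.54 and Krt5, a keratin of basal squamous cells, at 12.53, while Cdx1, an intestinal transcription factor, was at 4.0.

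Between E16.5 and E18.5 skin, 1 of the 10 claudins changed, against 4.44% of all genes. Cldn4 was at 9.99, 10.15 and 10.25 at E16.5 and 7.22, 7.61 and 8.43 at E18.5, with no overlap, and fell by 2.38 log2 units (SE 0.47, adjusted p = 0.00157). Summed deposited intensities of epithelial reference genes were 43240 to 50970 at E16.5 and 29040 to 33340 at E18.5, and of vascular endothelial genes 16520 to 20760 and 4488 to 6051. After normalization the median level of the epithelial genes was 9.19 to 9.30 at E16.5 and 8.34 to 9.09 at E18.5. That of the endothelial genes was 8.30 to 8.51 and 8.22 to 8.54, so their summed fall was not seen in the median. The part of these cell types in the Cldn4 fall was not tested. Cldn1 was high at both ages, with means of 9.51 ± 0.07 and 9.66 ± 0.11. It was also high at E14.5, at 8.84 ± 0.04 (SD, n = 3). A second Cldn1 probe set was nearly as bright (mean over all arrays 7.79 against 7.82) and highest in E14.5 skin, at 9.48. Its correlation with the one used was 0.944 over the group means. Within each set of arrays the skin means of Cldn1 were above those of the other organs.

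The step from E14.5 to E16.5 skin crosses the 2 sets of arrays, so its differences cannot be told apart from the split. Of the 10 claudins, 7 were called and 43.2% of all genes were, so the call says little here. The called values were 4.02 for Cldn4, 1.96 for Cldn5 and 1.52 for Cldn10 upward, and -2.12 for Cldn3, -3.11 for Cldn6, -2.71 for Cldn7 and -1.83 for Cldn8. Cldn4 was at 6.24, 6.03 and 6.06 at E14.5. Cldn6 was at 8.69, 8.79 and 5.82 and Cldn7 at 8.73, 8.68 and 6.18, with replicates 1 and 2, which carry liver and gut genes, above replicate 3. Without replicates 1 and 2, Cldn7 moved to -1.02 (adjusted p = 0.24) and Cldn3 to -1.62 (adjusted p = 0.231), neither of them called, and Cldn6 moved to -1.16 (adjusted p = 0.0186). The change over the same interval differed between skin and bladder for 7 members, against 42.2% of all genes. Over all 3 skin ages 8 members were called against 49.5% of all genes, and over all 5 organs at E18.5 all 10 were called against 71.1%. With E14.5 skin replicates 1 and 2 averaged to 1 array, Cldn3 lost its call over the skin ages (adjusted p = 0.0955).

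**Figure D4:**
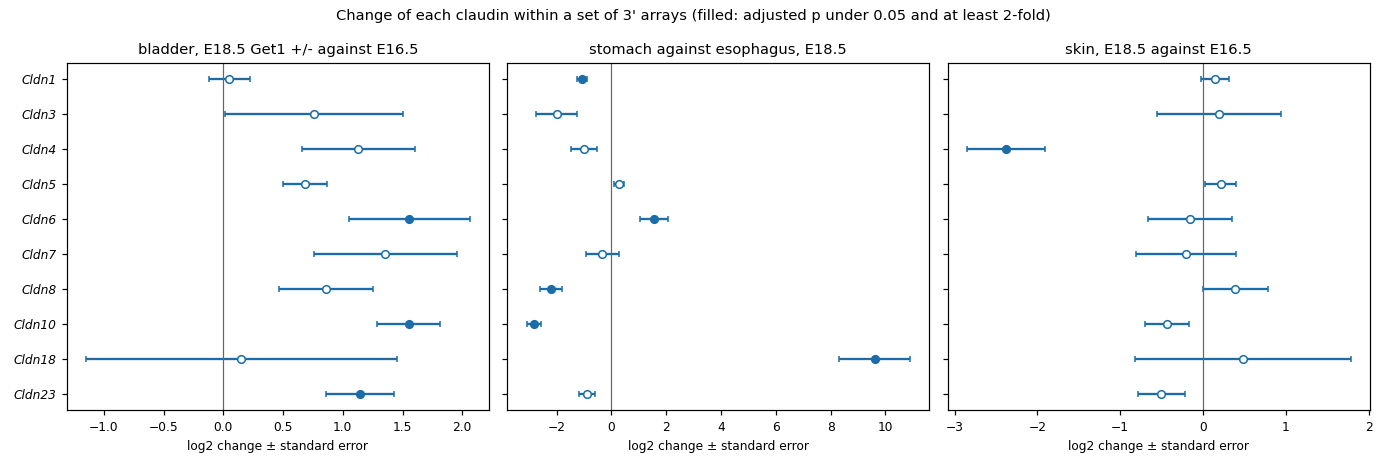
Log2 change (horizontal axis, with bars for the standard error) of each claudin (vertical axis) in 3 comparisons within a set of 3' arrays, Get1 +/- E18.5 against E16.5 bladder, stomach against esophagus and E18.5 against E16.5 skin, with filled points for called changes. Cldn18 in stomach (9.60) stands apart, and Cldn4 (-2.38) is the one called change in skin.

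Ranked by level within a table, most neighbouring groups of a claudin were not called. Of 160 pairs of neighbours in rank, 12 were called and 148 were not. Neighbours in rank are the closest groups by construction, and no such count over all genes was made. The count therefore says little about claudins in particular. In the Gene ST table the called neighbours were the following. Cldn3 was lower on the arrays labelled lung than in E14.5 cornea, its next group, by 1.67 log2 units. Cldn23 was lower on those arrays than in E14.5 cornea by 2.30. Cldn6 in trachea stood 1.16 above its next group, E14.5 cornea. Each of these pairs crosses the split between cornea and the other arrays of the Gene ST table. For Cldn4 and Cldn7, E17.5 cornea was 1.12 and 1.77 above E14.5 cornea, and for Cldn10 E15.5 cornea was 1.65 above E14.5 cornea. The order of all 9 groups for Cldn7 ran from P28 cornea through P14, P7, P3, trachea, E15.5 and E17.5 to E14.5 cornea and the arrays labelled lung.

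In the 3' table the called neighbours included Cldn18 in stomach above small intestine (6.63). That pair crosses the sets, and its small intestine mean rests on replicate 3. The others were Cldn1 in esophagus above stomach (1.07), Cldn6 in E16.5 bladder above esophagus (1.51), and Cldn4 in E16.5 skin above E18.5 skin (2.38) and in E18.5 skin above small intestine (1.22). Cldn7 in E14.5 skin stood 2.71 above E16.5 skin, a pair that crosses the sets. For Cldn5, the claudin of endothelium, the 3 highest means were in E18.5 skin (9.71 ± 0.30), E16.5 skin (9.49 ± 0.07) and small intestine (8.61 ± 0.29), the 3 groups of the smaller set. Pecam1, an endothelial surface protein, was at 8.24 in E16.5 skin and 5.75 in E14.5 skin.

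Other members of the claudin family were measured at 15 genes in the Gene ST table and 13 in the 3' table. Over the cornea ages 3 of the 15 were called, Cldn17 with a range of 2.72, Cldn13 and Cldnd1, which is near the 21.7% of all genes, and the median range was 0.51 against 0.55 over all genes. From E14.5 to E15.5 their median change was -0.08. From P14 to P28 Cldn17 rose by 1.75 while Cldn1 and Cldn10 fell. In trachea Cldn22, Cldn24 and Cldn12 exceeded the arrays labelled lung by 1.74, 1.42 and 1.07, which is 3 of 15 against 16.1% of all genes. In the Get1 +/- bladder Cldn9 rose by 2.40 and Cldn16 changed by -1.55 from E16.5, which is 2 of 13 against 6.14% of all genes. Of the 13 in the 3' table, 2 were called in small intestine against skin, where 19.2% of all genes were: the pore-forming Cldn2 and Cldn15, typical of intestine, exceeded skin in small intestine by 4.72 and 2.45.

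Of the other tight junction genes measured, 18 of 24 changed over the cornea ages, against 21.7% of all genes, with a median range of 1.46 log2 units against 0.55. From E14.5 to E15.5, 7 of 24 rose and none fell, against 7.56% of all genes, led by F11r, the junctional adhesion molecule A, with 2.44, and Ocln, the strand protein occludin, with 2.14. From E14.5 to P28, 12 rose and 2 fell, against 13.9% of all genes (median 0.99 against -0.11), with F11r at 3.67 and Ocln at 3.43, and with Jam3, an adhesion molecule of several cell types, at -2.38. From P14 to P28, 3 rose and 1 fell, against 4.47% of all genes, with Ocln at 1.02 and Jam2 at -1.50. In trachea 11 of 24 exceeded the arrays labelled lung and none was lower, against 16.1% of all genes (median 0.62 against -0.06), with Ocln at 2.37 and Tjp1, the scaffold ZO-1, at 1.95. Between stomach and esophagus 1 of 24 was higher and 2 were lower in stomach, against 7.05% of all genes, with Crb3, an apical polarity protein, at 1.13 and Marveld3, a relative of occludin, at -1.66. From E16.5 to E18.5 skin 1 of 24 rose and 1, Ocln, fell by 1.97, against 4.44% of all genes. In small intestine 11 exceeded skin and 2 were lower, against 19.2% of all genes, with Ocln at 3.07.

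The genes with the course most like each claudin over the 9 group means of a table, among genes whose means span at least 1 log2 unit, are given as a description, since all share the same arrays. In both tables these group means lie on both sides of the split on the first component. In the Gene ST table Cldn7 was most like Ppfibp2 (r = 0.992), Cpd (0.992) and Nipal2 (0.991), and its correlation with Cdh1 was 0.956. Cldn23 was most like Ttc30b (0.992), Mcee (0.987) and Slc44a1 (0.986), with 0.897 for Cdh1 and 0.878 for Cldn7. Cldn10, with its peak at P7, was most like Sytl5 (0.967), Gask1b (0.943) and Thbd (0.938). Cldn1 was most like Ormdl3 (0.984), Smco4 (0.983) and Lats1 (0.982), and Cldn4 most like Jup (0.923), the gene of plakoglobin, a junctional protein. Cldn6 was most like Myod1 (0.989), a muscle transcription factor that is high on the trachea arrays with the other muscle genes.

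In the 3' table Cldn18 was most like Kcne2 (0.992), a potassium channel subunit, and Pgc (0.992), the gene of a gastric pepsinogen. Both Cldn7 (0.978) and Cldn3 (0.904) had Cftr, the chloride channel of secretory epithelia, among their 3 most alike genes, and Cldn3 was most like Rab17 (0.940). Cldn8 was most like Rnf19a (0.966), Cldn10 most like Adam8 (0.957) and Cldn23 most like Isg20 (0.974). The correlation of Cldn5 with Pecam1 was 0.978, and both follow the split between the 2 sets of arrays.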

How the data were processed

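Total RNA of whole tissues, extracted with Trizol per the labels' protocols, was measured on 53 Affymetrix arrays of 2 platforms. The authors deposited 1 table of probe set intensities per platform. The submitters' processing notes name PLIER 2.0 and the software Affymetrix Expression Console 1.1.1, without its settings. Each table was analysed on its own. The deposited intensity was turned into log2(intensity + 16) and quantile-normalized within the table. A fold change on this scale understates the change of dim genes. Probe sets were named through the platform annotation: of 35556 Gene ST probe sets 21789 name 1 gene, 1621 several and 12146 none, and of 45101 3' probe sets 34958, 932 and 9211. Probe sets with several genes were left out, and the brightest probe set stood for each gene. Before normalization the median level of an array was 7.60 to 8.17 on Gene ST arrays and 5.35 to 6.03 on 3' arrays, and the number of arrays limits the precision.

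Groups were compared with limma 3.58.1 (lmFit and eBayes, R 4.3.3) fitted over all groups of a table, and p-values were adjusted by the Benjamini-Hochberg method over all named genes. The steps were tested on simulated data first. The claudins and gene lists were chosen with earlier results of these data known. Other genes named are, per comparison, up to 4 called genes with the largest change of each list, the 3 genes most alike per claudin, Epcam, Cdh1 and Pecam1, and genes of the tissue lists. Alternatives were values as deposited, a pseudocount of 1, a filter on dim genes, the mean of all probe sets, another variance model, only the groups compared, no fold limit, each array left out in turn and, where labels share replicate numbers, the number as a block. For skin, E14.5 replicates 1 and 2 were also averaged to 1 array. Within-set normalization, the omission of E14.5 skin replicates 1 and 2, comparisons within a set of arrays and the cornea steps from E14.5 to E15.5 and P14 to P28 were chosen after seeing the data. Deviations of same-numbered arrays correlated at 0.133 to 0.242 between P14 and P28 cornea. The reported changes, also for this step, come from fits without pairs, and the number entered only as the alternative block. Promoter sequences are from RefSeq.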

Additional observations from a re-analysis of the deposited data

Results flagged for a closer look

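Between E14.5 and E16.5, skin and bladder changed differently for 7 claudins when the difference of the changes (skin minus bladder) was itself tested with limma, as it did for 42.2% of all genes. The difference was 3.92 log2 units for Cldn4 (SE 0.71, adjusted p = 8.9e-05), 1.74 for Cldn5 (SE 0.28, adjusted p = 2e-05) and 1.03 for Cldn10 (SE 0.40, adjusted p = 0.0351). It was -2.40 for Cldn6 (SE 0.76, adjusted p = 0.0114), -2.98 for Cldn7 (SE 0.90, adjusted p = 0.00885), -2.01 for Cldn8 (SE 0.59, adjusted p = 0.00718) and -1.13 for Cldn23 (SE 0.42, adjusted p = 0.0293). The Cldn23 call was lost without bladder E16.5 replicate 1 or 3 (adjusted p = 0.0549 and 0.0546). It was also lost without E14.5 skin replicate 3 (0.0696) or E16.5 skin replicate 1 (0.0703). The Cldn10 call was lost with E14.5 skin replicates 1 and 2 averaged to 1 array (adjusted p = 0.0649). Omission of bladder E16.5 replicate 1 (0.104), E16.5 skin replicate 1 (0.0716) or E14.5 skin replicate 1 (0.052) or 2 (0.0828) also ended the Cldn10 call. So did a pseudocount of 1 (0.169) and normalization within each set of arrays (0.0595). The Cldn6 call was lost when only the groups compared entered the fit (0.0619). Omission of bladder E14.5 replicate 2 leaves 1 array in that group. The difference was then -1.90 for Cldn6, -1.45 for Cldn8, 1.11 for Cldn10 and -1.10 for Cldn23. The bladder groups and E14.5 skin lie in the set of 17 arrays and E16.5 skin lies in the set of 9, so the difference cannot be told apart from the split between the sets. Without E14.5 skin replicates 1 and 2, which carry liver and gut genes, the difference was -0.45 for Cldn6 (adjusted p = 0.502), -1.29 for Cldn7 (adjusted p = 0.264) and 0.79 for Cldn10 (adjusted p = 0.207), and none of the 3 was called.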

How the results depend on the processing

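The counts kept within 1.5 times of the reported count under 308 of 313 alternatives. Of these alternatives, 60 concern the pairs of neighbouring groups not called. All exceptions lay in the rest, the counts of called claudins. The exceptions were as follows. With no fold limit, 8 members were called over the cornea ages and 7 from E14.5 to P28. The difference between the skin and bladder changes held 3 members without bladder E14.5 replicate 2 and 4 without E14.5 skin replicates 1 and 2, and stomach against esophagus held 3 without stomach replicate 1. Without 1 array, counts ran from 5 to 6 over the cornea ages, from 7 to 8 over the skin ages, from 6 to 7 for E16.5 against E14.5 skin, from 3 to 5 for stomach against esophagus, from 3 to 7 for the skin and bladder difference, and from 4 to 7 for small intestine against skin. The Get1 +/- bladder step held 2 whichever array was left out, since Cldn6 dropped out, and also lost Cldn6 as deposited (adjusted p = 0.0537). Groups left with 1 array were assumed to vary like the others. Of 160 neighbouring groups, 143 to 151 were not called without 1 array, and 134 to 149 under the other alternatives. Small intestine against skin reversed for Cldn8 without small intestine replicate 1 (-0.059; 1.10 without replicate 3) and for Cldn18 without replicate 3 (-0.78; 3.61 without replicate 2). Of the changes of single claudins, 60 lost their call, 24 gained one and 2 reversed among 1709 values. Cldn7 lost its call from E14.5 to E15.5 when only these groups entered the fit (adjusted p = 0.0649), and Cldn1 between stomach and esophagus with the mean of all probe sets (-0.53). With the replicate number as a block, 5 members were called over the cornea ages, 4 for E14.5 to P28, 5 for E14.5 to E15.5, 2 for P14 to P28, 6 for trachea against the arrays labelled lung and 5 for stomach against esophagus, as without it. Outside P14 and P28 not every pair of same-numbered arrays deviated together (-0.248 to 0.345 over all cornea ages, -0.0714 to -0.0124 for trachea and lung, 0.0644 to 0.13 for stomach and esophagus). Signal near background limits dim claudins: Cldn18 lay below the median of the Gene ST table in all 9 groups.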
